A study of Mus musculus with 15 samples.

Results

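The ligands, receptors and SMAD proteins of TGF-β signaling, with the BMP ligand BMP7, were followed in the podocyte fraction of mouse kidney cortex. The group was set by name as 10 genes, namely *Tgfb1*, *Tgfb2*, *Tgfb3*, *Tgfbr1*, *Tgfbr2*, *Tgfbr3*, *Smad2*, *Smad3*, *Smad7* and *Bmp7*. All 10 were found among the 46078 genes of the deposited count table, and all 10 passed the filter on low counts in each of 3 comparisons. Podocytes, the epithelial cells that wrap the glomerular capillaries, were enriched from digested cortex by magnetic sorting with antibodies to nephrin. The mice were male C57BL/6J. Young mice were 4 months old and received no injection (n = 5 libraries). Aged mice were 21 months old and were given 12 mg/kg of antibody every week for 8 weeks, either the isotype control IgG2a (clone 2A3, n = 4 libraries) or an antibody to PD-1 (aPD1ab, clone RMP1-14, n = 4 libraries), although the sample titles of the latter state 47 days. Since the young mice had no isotype injection, age and injection cannot be told apart between young and aged IgG2a-injected mice.

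TGF-β ligands are secreted in a latent form that stays bound in the matrix until integrins or proteases free them. An active ligand joins the type II receptor with the type I receptor, which phosphorylates SMAD2 and SMAD3, and these enter the nucleus with SMAD4. SMAD7 is induced by the pathway and restrains it, and the large coreceptor betaglycan (*Tgfbr3*) presents ligand. BMP7 acts through other receptors and SMAD1, SMAD5 and SMAD9, and is known in the kidney as an epithelial factor that opposes TGF-β. Excess TGF-β is a textbook driver of glomerular scarring and podocyte loss.

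The members lie on 8 chromosomes of GRCm38. *Tgfb1* (ENSMUSG00000002603) spans chromosome 7, 25687002 to 25705077, on the plus strand. *Bmp7* (ENSMUSG00000008999) spans chromosome 2, 172868012 to 172940321, on the minus strand. *Tgfbr1* (ENSMUSG00000007613) spans chromosome 4, 47353222 to 47414931, and *Tgfbr2* (ENSMUSG00000032440) spans chromosome 9, 116084293 to 116175360. *Tgfbr3* (ENSMUSG00000029287) spans chromosome 5, 107106570 to 107289629. *Tgfb3* (ENSMUSG00000021253, chromosome 12, 86056745 to 86079041) lies on the minus strand and overlaps the span of *Ttll5* on the plus strand, and since the strand setting of the counting is not given in the sources used here, reads of *Ttll5* introns could have entered the *Tgfb3* count. The annotated exons of the pair shared 0 bases.

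*Tgfb1*, *Tgfbr1* and *Tgfbr2* had their highest levels in the same 3 aged libraries, while *Tgfb2* stayed low, so their promoters are printed side by side. Each run holds 250 bases before and 50 bases after the RefSeq transcription start on GRCm38.p6, read 5′ to 3′ on the strand of the gene, and RefSeq entries were found for 5 of the 10 members. Capitals mark matches, on either strand, to the TATA box (letters TATAAA), the E-box (letters CACGTG), the GC box (letters GGGCGG), the CCAAT box (as named) and the CAGA box (letters CAGACA), none of which overlapped another in these windows. The windows are chr7:25686752-25687051 for *Tgfb1*, chr4:47352972-47353271 for *Tgfbr1*, chr9:116175314-116175613 for *Tgfbr2* and chr1:186705940-186706239 for *Tgfb2*.
Tgfb1: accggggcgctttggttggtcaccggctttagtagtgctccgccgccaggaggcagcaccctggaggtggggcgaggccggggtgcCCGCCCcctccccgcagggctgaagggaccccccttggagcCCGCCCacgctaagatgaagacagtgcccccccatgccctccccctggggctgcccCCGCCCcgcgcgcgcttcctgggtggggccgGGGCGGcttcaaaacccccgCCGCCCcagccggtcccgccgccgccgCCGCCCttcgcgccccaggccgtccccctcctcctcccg
Tgfbr1: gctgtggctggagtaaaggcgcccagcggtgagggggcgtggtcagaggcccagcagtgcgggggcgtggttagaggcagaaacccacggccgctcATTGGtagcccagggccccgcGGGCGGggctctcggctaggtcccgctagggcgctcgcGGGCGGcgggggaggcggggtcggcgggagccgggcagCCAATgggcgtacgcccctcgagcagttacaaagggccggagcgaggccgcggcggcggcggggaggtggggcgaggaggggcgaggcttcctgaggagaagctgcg
Tgfbr2: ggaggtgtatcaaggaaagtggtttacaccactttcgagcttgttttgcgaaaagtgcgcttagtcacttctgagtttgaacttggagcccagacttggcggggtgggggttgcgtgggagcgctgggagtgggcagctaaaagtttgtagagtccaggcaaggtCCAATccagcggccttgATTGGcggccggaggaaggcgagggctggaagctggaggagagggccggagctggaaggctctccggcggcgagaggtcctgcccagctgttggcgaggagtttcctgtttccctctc
Tgfb2: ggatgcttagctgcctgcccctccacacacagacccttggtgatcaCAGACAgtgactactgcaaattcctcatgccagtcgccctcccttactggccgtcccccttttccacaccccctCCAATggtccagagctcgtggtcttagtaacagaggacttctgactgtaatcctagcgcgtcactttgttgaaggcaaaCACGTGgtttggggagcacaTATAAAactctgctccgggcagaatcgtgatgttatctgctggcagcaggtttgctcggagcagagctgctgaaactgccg

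The *Tgfb1* window was 77.0% G or C and held 6 GC boxes and none of the other motifs. The *Tgfbr1* window held 2 GC boxes and 2 CCAAT boxes, and that of *Tgfbr2* 2 CCAAT boxes. In the *Tgfb2* window 1 TATA box, 1 E-box, 1 CCAAT box and 1 CAGA box were found. Of 32851 promoters of the same length, 35.66% held a GC box, 37.41% a CCAAT box, 13.62% a TATA box, 7.15% an E-box and 21.04% a CAGA box. These matches describe letters only.

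Totals ran from 19912969 to 32717100 counted reads per library. Levels are counts scaled to library size by the TMM method (CPM), and the spread is the SD between libraries. The podocyte label held only in part. Nephrin (*Nphs1*) stood at 64.5 ± 15.97 CPM in young, 8.80 ± 7.18 in aged IgG2a-injected and 27.1 ± 16.7 in aged aPD1ab-injected mice, and the summed level of 6 podocyte markers was 802 to 1277 CPM in young, 451 to 621 with IgG2a and 239 to 773 with aPD1ab. In young mice the 6 proximal tubule markers summed to 4022 to 6635 CPM and the 6 macrophage markers to 1416 to 2575 CPM. The 5 loop of Henle and distal tubule markers summed to 6326 to 9029 CPM, with the highest median of the 9 lists. No listed marker of 9 cell types was at or under 3 counts in all libraries of a group. One aged IgG2a library, replicate 1, stood apart from the other 3: its macrophage sum was 2300 CPM against 5342 to 6523, and its proximal tubule sum 2943 CPM against 555 to 907. Its loop of Henle and distal tubule sum was 12995.5 CPM against 5606 to 6129, and its collecting duct sum 947 CPM against 444 to 573. Its podocyte sum, 470 CPM, lay within the range of the other 3. Calls that involve the aged IgG2a group are given with and without replicate 1. That library was singled out from these same data, so p-values without it follow a choice made with the data known.

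Levels were compared per kilobase of the union of exons. *Tgfbr1*, the type I receptor, was the most abundant member in young mice at 35.8 ± 3.78 CPM per kilobase (n = 5), followed by the type II receptor *Tgfbr2* at 21.1 ± 2.07 and *Tgfb1* at 11.9 ± 3.79. *Bmp7* (8.52 ± 0.998), *Smad7* (6.81 ± 0.920) and *Smad3* (6.70 ± 0.752) came next, each overlapping its neighbor in this order. *Tgfbr3* (4.89 ± 0.605), *Smad2* (2.88 ± 0.168), *Tgfb3* (1.58 ± 0.273) and *Tgfb2* (0.660 ± 0.0916) closed the order, and their ranges did not overlap. In aged IgG2a-injected mice *Tgfbr1* (49.0 ± 15.5) and *Tgfbr2* (29.9 ± 8.87) again led, with ranges that overlapped each other, and *Tgfb1* reached 24.2 ± 8.90 (n = 4). In aged aPD1ab-injected mice *Tgfbr1* stood at 23.3 ± 11.4, *Tgfbr2* at 17.0 ± 3.26, *Tgfb1* at 15.6 ± 5.27 and *Bmp7* at 10.2 ± 1.28, and each of these overlapped the next. Without replicate 1 the IgG2a levels were 56.7 ± 0.536 for *Tgfbr1*, 34.1 ± 3.43 for *Tgfbr2* and 28.6 ± 0.277 for *Tgfb1* (n = 3). The order rests on the length used. Per kilobase of the longest transcript, a length chosen after seeing the data, *Tgfb1* (23.2 ± 7.42) stood above *Tgfbr2* (21.4 ± 2.09) in young mice, and with aPD1ab *Tgfb1* (30.7 ± 10.3) stood above *Tgfbr1* (26.4 ± 12.99).

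**Figure D1:**
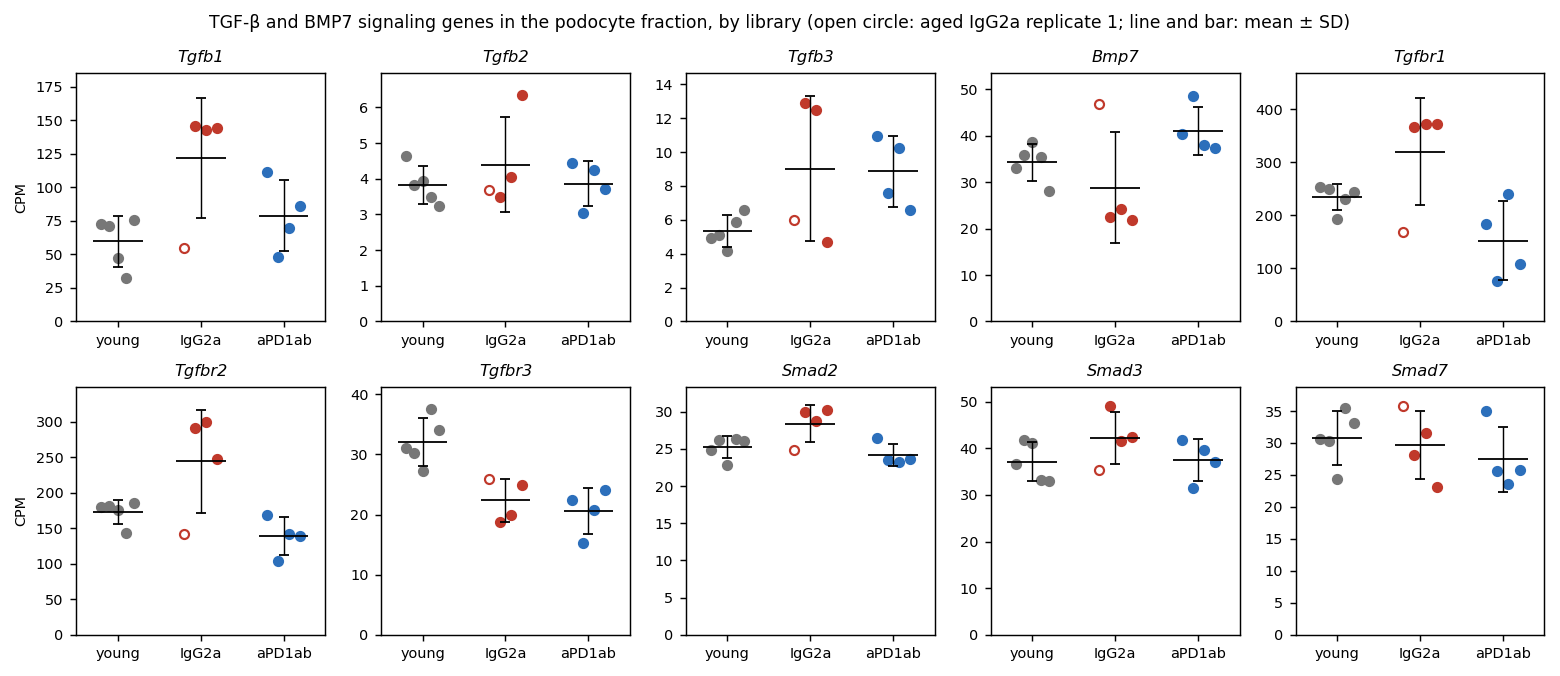
Level of each member in CPM (linear axis from 0) in every library of young (n = 5), aged IgG2a-injected (n = 4) and aged aPD1ab-injected mice (n = 4). Lines and bars are mean ± SD, and the open circle is aged IgG2a replicate 1. For *Tgfb1* the 3 other IgG2a libraries lie at 143 to 146 CPM and replicate 1 at 54.7.

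Aged IgG2a-injected mice were compared with young mice for the change with age. With all 9 libraries, 1 member was higher (*Tgfb1*) and 1 was lower (*Tgfbr3*) at an adjusted p under 0.05, against 17.4% of 15953 genes tested (9.05% higher and 8.38% lower), by the quasi-likelihood F test of edgeR, with p adjusted after Benjamini and Hochberg over all genes tested. Without aged IgG2a replicate 1 the count was 6 higher and 2 lower, and 45.6% of 16216 genes were called (22.1% higher and 23.5% lower). Without that library 6 members had groups that did not overlap, beside 47.2% of genes. With all 9 libraries DESeq2 called 3 members, beside 4455 of all genes, and limma voom called 8, beside 7423. The members' median log2 fold change was 0.25, beside 0.038 over all genes, and 0.31 without replicate 1, beside -0.0062. In a bulk fraction, fewer cells of a type and less RNA per cell cannot be told apart.

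*Tgfb1*, the main TGF-β ligand of immune and injured tissue, was measured at 72.4, 71.1, 47.4, 32.2 and 75.8 CPM in the 5 young libraries. The aged IgG2a libraries held 54.7, 146, 143 and 144 CPM, and the aged aPD1ab libraries 111, 48.3, 69.8 and 86.1. IgG2a replicates 2 to 4 lay above every young library, and replicate 1 lay within the young range. *Tgfb1* rose 2.15-fold with IgG2a over young (log2 fold change 1.10, standard error 0.33, edgeR adjusted p = 0.0470), and 2.51-fold without replicate 1 (1.33, standard error 0.25, edgeR adjusted p = 0.00250). The call was lost when any of the 8 libraries other than replicate 1 was left out (log2 fold change 0.95 to 1.33, edgeR adjusted p = 0.00250 to 0.127 over the 9 omissions), and in 4 of the 6 other settings.

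*Tgfb2* and *Tgfb3*, ligands better known from development, were far lower. *Tgfb2* was between 3.24 and 4.64 CPM in young, 3.47 and 6.35 with IgG2a and 3.05 and 4.44 with aPD1ab, so that the 3 groups overlapped. *Tgfb3* was at 4.93, 5.13, 4.16, 5.90 and 6.56 CPM in young mice and at 5.98, 12.9, 12.5 and 4.70 CPM with IgG2a, which gave no call (log2 fold change 0.83, standard error 0.30, edgeR adjusted p = 0.0841). Without replicate 1 it passed (0.98, standard error 0.29, edgeR adjusted p = 0.0194). Over the 9 omissions of 1 library its adjusted p in edgeR reached 0.250. Replicates 2 and 3 carried the high *Tgfb3* values, and replicate 4 lay within the young range.

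*Bmp7* took the other direction in part of the aged mice. The young libraries held 33.1, 35.9, 38.7, 35.5 and 28.0 CPM and the aged IgG2a libraries 46.8, 22.4, 24.3 and 21.8 CPM. Replicate 1 was above all young libraries, and the other 3 were below all of them. With all 4 IgG2a libraries the log2 fold change was -0.19 (standard error 0.22, edgeR adjusted p = 0.553), and without replicate 1 *Bmp7* fell by 0.53 on the log2 scale, or 1.44-fold (standard error 0.11, edgeR adjusted p = 0.00312). Over the 9 omissions of 1 library its adjusted p in edgeR reached 0.823. Within each library the log2 ratio of *Bmp7* to *Tgfb1* per kilobase of exon was -0.41 ± 0.65 in young (n = 5), and in the aged IgG2a libraries 0.10, -2.38, -2.23 and -2.40. With aPD1ab it was -0.56 ± 0.64 (n = 4). With the longest transcript as length it was -1.25 in young and -1.40 with aPD1ab. The ratio was not tested.

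*Tgfbr1* was measured at 253, 250.5, 193, 229.995 and 245 CPM in young and at 168, 367, 373 and 373 CPM with IgG2a. *Tgfbr2* stood at 179, 182, 176, 143 and 185 CPM in young and at 141, 291, 299 and 247 CPM with IgG2a. In both receptors replicate 1 lay below all young libraries and the other 3 lay above all of them. Neither passed in edgeR with all libraries, with log2 fold changes of 0.52 for *Tgfbr1* (standard error 0.24, edgeR adjusted p = 0.140) and 0.57 for *Tgfbr2* (standard error 0.22, edgeR adjusted p = 0.0889). Without replicate 1 *Tgfbr1* rose 1.64-fold (0.72, standard error 0.11, edgeR adjusted p = 3.6e-04) and *Tgfbr2* 1.68-fold (0.74, standard error 0.11, edgeR adjusted p = 3.94e-04). Over the 9 omissions of 1 library the adjusted p in edgeR reached 0.308 for *Tgfbr1* and 0.231 for *Tgfbr2*.

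*Tgfbr3* was the only member whose aged IgG2a libraries all lay on one side of the young ones. It was at 31.1, 30.2, 27.2, 37.6 and 34.05 CPM in young and at 26.0, 18.7, 19.97 and 24.9 CPM with IgG2a, a fall of 1.37-fold (log2 fold change -0.46, standard error 0.13, edgeR adjusted p = 0.0392). All IgG2a libraries were below all young ones for 9.73% of the genes tested. Without replicate 1 the log2 fold change was -0.55 (standard error 0.13, edgeR adjusted p = 0.00523). Leaving out any other library ended the call, with adjusted p-values of 0.0569 to 0.122 in edgeR and log2 fold changes of -0.53 to -0.38.

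Differences were smaller for the SMAD genes. *Smad2* was at 24.9, 26.2, 22.8, 26.3 and 26.0 CPM in young and at 24.8, 29.9, 28.7 and 30.2 CPM with IgG2a (log2 fold change 0.23, standard error 0.098, edgeR adjusted p = 0.117, or 0.28 and 0.0156 without replicate 1). *Smad3* was at 33.1 to 41.7 CPM in young and 35.4 to 49.0 CPM with IgG2a (0.25, standard error 0.13, edgeR adjusted p = 0.190, or 0.31 and 0.0384 without replicate 1). The inhibitory *Smad7* was at 24.3 to 35.5 CPM in young and 23.1 to 35.7 CPM with IgG2a, with log2 fold change 0.0094 (standard error 0.14, edgeR adjusted p = 0.969) whose sign turned in 5 of 6 other settings. Without replicate 1, *Smad2* rose 1.22-fold and *Smad3* 1.24-fold. Over the 9 omissions of 1 library the adjusted p in edgeR reached 0.285 for *Smad2* and 0.470 for *Smad3*.

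**Figure D2:**
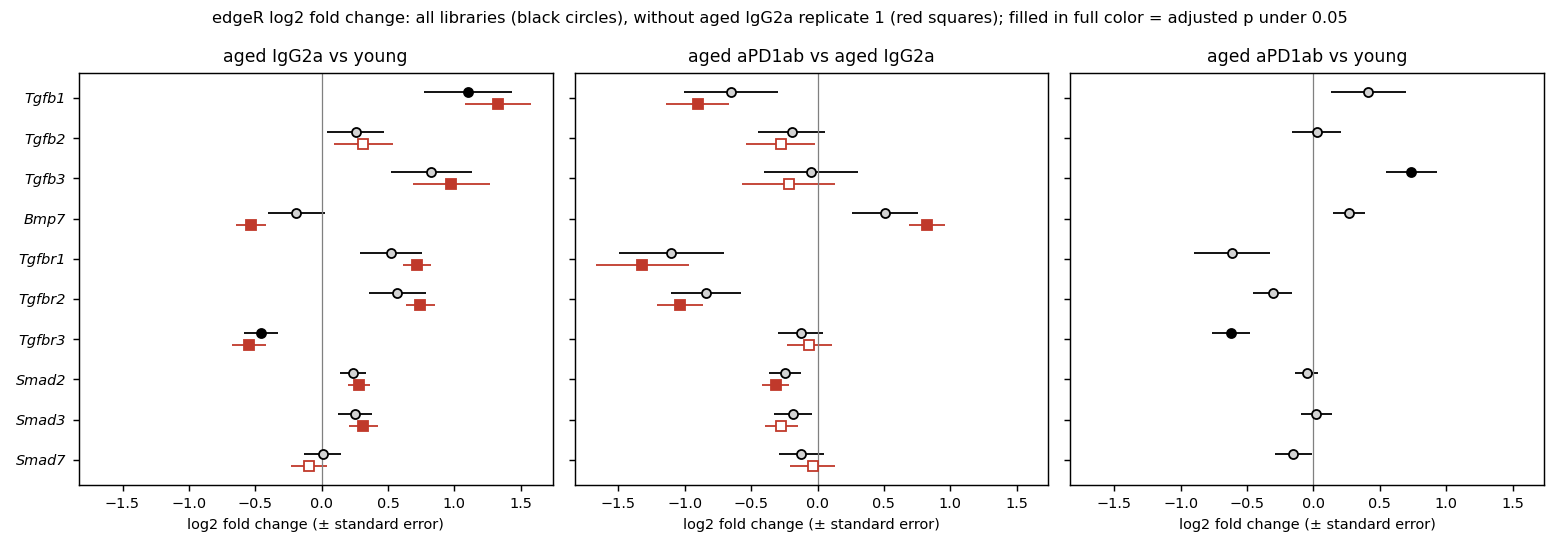
The log2 fold change of each member (horizontal axis, ± standard error, edgeR) in the 3 comparisons. Black circles use all libraries and red squares leave out aged IgG2a replicate 1; black or red fill marks an adjusted p under 0.05 over all genes. Without replicate 1, 8 members pass between IgG2a and young and 5 between aPD1ab and IgG2a, beside 45.6% and 30.4% of all genes.

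All 6 of 6 macrophage markers were higher with IgG2a than in young mice, as were 6 of 6 without replicate 1, and none was at or under 3 counts. Of all genes 17.4% passed, and 45.6% without replicate 1. Of 6 T and B cell markers 0 passed with all libraries (median log2 fold change 0.96). Without replicate 1, 3 of them were higher and 0 lower (median 1.18). Proximal tubule markers were lower in 6 of 6, and podocyte markers were lower in 5 of 6 and higher in 1 of 6, with and without replicate 1. Endothelial markers were lower in 4 of 6, and in 5 of 6 without replicate 1. The libraries with the 3 highest macrophage sums were the same 3 that held the highest *Tgfb1*, *Tgfbr1* and *Tgfbr2* levels and the lowest *Bmp7* levels. The part of these cells in the members' levels was not tested.

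**Figure D3:**
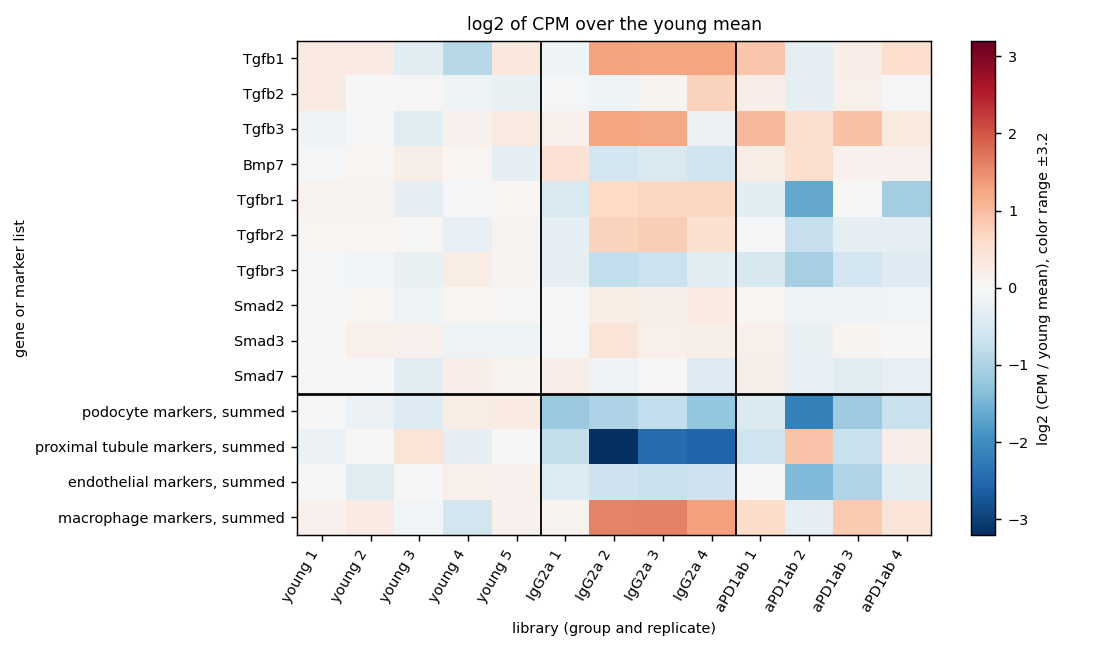
Each cell is the log2 of a library's CPM over the young mean (color, from -3.2 to 3.2), for the 10 members and for the summed markers of 4 cell types (rows) in 13 libraries (columns, in groups of young, IgG2a and aPD1ab). Aged IgG2a replicates 2 to 4 are red for macrophage markers, *Tgfb1*, *Tgfbr1* and *Tgfbr2* and blue for *Bmp7* and proximal tubule markers; replicate 1 is red for *Bmp7*, near white for macrophage markers and a paler blue for proximal tubule markers.

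Aged aPD1ab-injected mice were compared with aged IgG2a-injected mice for the effect of the antibody. With all 8 libraries no member passed, and neither did any of 15530 genes (0.0%) in edgeR; 2 members and 28.0% of genes had an unadjusted p under 0.05. DESeq2 called 2 members with 15.9% of its genes, and limma voom with sample weights called 5 with 39.7%. Without replicate 1, edgeR called 1 member higher (*Bmp7*) and 4 lower (*Tgfb1*, *Tgfbr1*, *Tgfbr2* and *Smad2*), with 30.4% of 15770 genes called (17.1% higher and 13.2% lower). The same 5 members were those whose groups did not overlap without that library, beside 43.6% of all genes. Over the 8 omissions of 1 library the count ran from 0 to 5 members, the highest without replicate 1.

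The aPD1ab libraries held 184, 75.6, 241 and 108 CPM of *Tgfbr1* and 169, 104, 142 and 139.8 CPM of *Tgfbr2*. For both receptors these values overlapped the IgG2a group only through replicate 1. The log2 fold change of *Tgfbr1* was -1.10 (standard error 0.40, edgeR adjusted p = 0.131) with all libraries and -1.32 (standard error 0.35, edgeR adjusted p = 0.0260) without replicate 1. That of *Tgfbr2* was -0.84 (standard error 0.27, edgeR adjusted p = 0.115) and -1.04 (standard error 0.17, edgeR adjusted p = 0.00777).

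*Bmp7* was at 40.3, 48.5, 38.0 and 37.4 CPM with aPD1ab. All 4 lay above IgG2a replicates 2 to 4, and replicate 1 lay among them. The log2 fold change was 0.51 (standard error 0.25, edgeR adjusted p = 0.214) with all libraries and 0.82 without replicate 1, or 1.77-fold (standard error 0.14, edgeR adjusted p = 0.00777). For *Tgfb1* the values were -0.65 (standard error 0.35, edgeR adjusted p = 0.251) and -0.90 (standard error 0.24, edgeR adjusted p = 0.0254). *Smad2* was at 26.4, 23.6, 23.2 and 23.6 CPM with aPD1ab, for -0.24 (edgeR adjusted p = 0.211) and, without replicate 1, -0.32 (edgeR adjusted p = 0.0462). None of the 6 macrophage markers passed between the aged groups with all libraries, and 5 of 6 were lower without replicate 1, when 6 of 6 proximal tubule markers were higher. Of the 6 podocyte markers, 3 were higher and 1 was lower without replicate 1. Of 6 T and B cell markers 3 were lower and 0 higher without it, when 30.4% of all genes passed. The part of these cell types in the members' values was not tested.

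Aged aPD1ab-injected mice differed from young mice in 2 members, 1 higher and 1 lower, with 22.4% of 15986 genes called (12.4% higher and 9.97% lower). This comparison shares its young libraries with that of IgG2a against young. *Tgfb3* was at 10.96, 7.61, 10.3 and 6.60 CPM with aPD1ab, all above the young libraries, of which the highest held 6.56 CPM. Such a gap was found for 11.3% of genes. *Tgfb3* rose 1.67-fold (log2 fold change 0.74, standard error 0.19, edgeR adjusted p = 0.0212), while *Ttll5*, whose span overlaps that of *Tgfb3*, stood at -0.28 (edgeR adjusted p = 0.0930). The call of *Tgfb3* was lost without aPD1ab replicate 1 or 3 or young replicate 1 or 2 (adjusted p up to 0.0534 in edgeR), and in a fit of all 3 groups.

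*Tgfbr3* was at 22.4, 15.3, 20.8 and 24.1 CPM with aPD1ab and fell 1.54-fold from young (log2 fold change -0.62, standard error 0.14, edgeR adjusted p = 0.0142). All 4 libraries were below all 5 young ones, as for 10.6% of genes in this comparison. It was the 1 member call that held in each of 9 omissions of a library and in 6 other settings. With a change over 2-fold required as well, 0 members were called in this comparison. *Bmp7* was 1.21-fold above young (log2 fold change 0.27, standard error 0.12, edgeR adjusted p = 0.129) and *Tgfb1* 1.33-fold above (0.41, standard error 0.28, edgeR adjusted p = 0.317), neither with a call. For *Tgfbr1* the log2 fold change over young was -0.61 with a standard error of 0.29 (edgeR adjusted p = 0.146).

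The other genes of the pathway were read from 8 lists with 89 genes. Between IgG2a and young, 10 rose and 8 fell of 85 tested, beside 9.05% and 8.38% of all genes, and 16 rose and 17 fell without replicate 1, beside 22.1% and 23.5%. These 85 had, with all libraries, a median log2 fold change of 0.015 beside 0.038 for all genes. Between aPD1ab and IgG2a, 0 of 84 passed in edgeR, beside 0.0% of all genes. There were 12 at an unadjusted p under 0.05, beside 28.0% of all genes, and 7 called by DESeq2, beside 15.9%. Without replicate 1, 10 were higher and 10 lower in edgeR, beside 17.1% and 13.2% of all genes. Between aPD1ab and young, 8 rose and 15 fell of 85, beside 12.4% and 9.97%. No list count was tested against these shares.

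Among 15 extracellular antagonists and modulators, 3 rose and 1 fell with IgG2a over young (17.4% of all genes passed). Without replicate 1, 3 rose and 4 fell (45.6%), and with aPD1ab over young 3 rose and 2 fell (22.4%). *Grem1* rose in both aged groups. It encodes gremlin 1, a secreted protein that binds BMPs and blocks them. *Grem1* was at 0.166, 0.122, 0.159, 0.872 and 0.224 CPM in young mice, which are counts of 4 to 26 in a table whose low counts were mostly even, so that the number of fragments behind them is not known, at 13.2, 1.92, 1.88 and 3.32 CPM with IgG2a and at 14.0, 29.4, 6.46 and 5.53 CPM with aPD1ab. Every aged library was above every young one. The log2 fold change from young was 4.06 (standard error 0.77, edgeR adjusted p = 0.0137) with IgG2a and 5.46 (standard error 0.68, edgeR adjusted p = 0.00299) with aPD1ab.

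For *Grem1*, replicate 1 was the highest aged IgG2a library. Without it the log2 fold change over young was 2.94, and aPD1ab exceeded IgG2a by 2.55 (edgeR adjusted p = 0.0231), against 1.45 without a call when it was kept and 0.74 without aPD1ab replicate 2. The *Grem1* calls against young held in every setting tried. In the same list, *Crim1*, a membrane protein that binds BMPs, fell from 83.4 ± 13.1 CPM in young to 49.8 ± 8.02 with IgG2a (log2 fold change -0.68, or -0.80 without replicate 1) and 47.7 ± 6.17 with aPD1ab (-0.80). *Crim1* with IgG2a lost its call without IgG2a replicate 2 or 3 (adjusted p up to 0.0594 in edgeR). *Twsg1* was the most abundant gene of the list, at 70.6 to 109 CPM in young, 56.6 to 106 CPM with IgG2a and 58.7 to 88.9 CPM with aPD1ab.

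**Figure D4:**
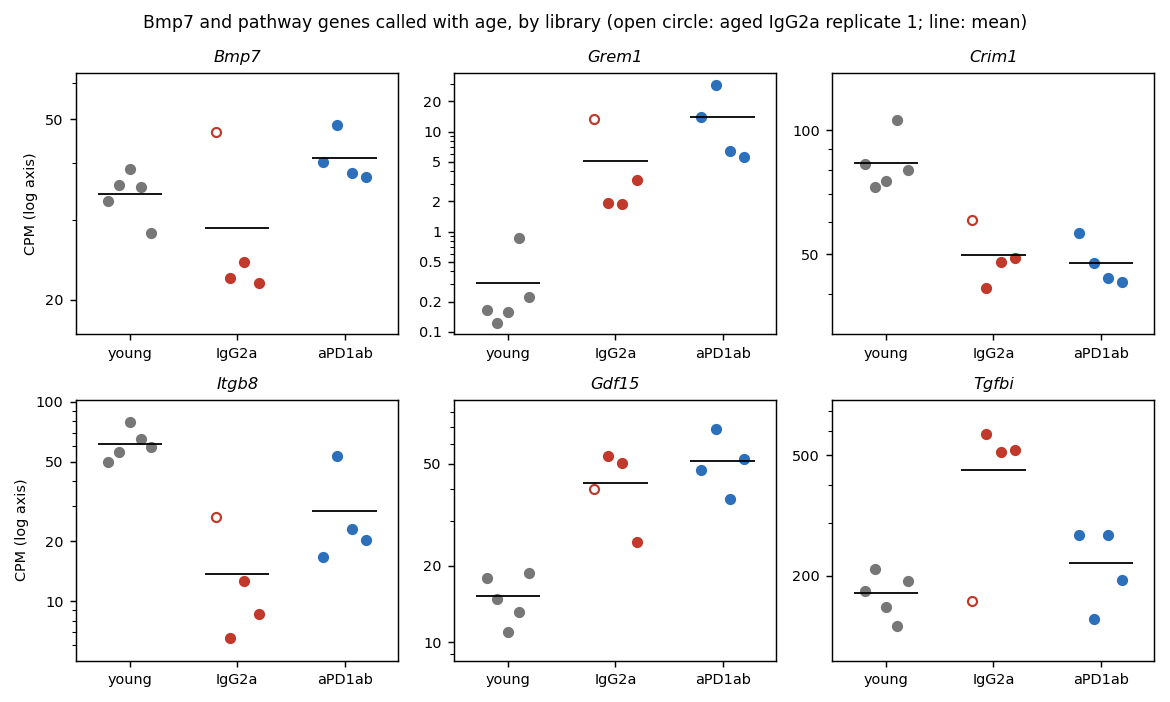
Levels in CPM (log axis, a range of its own for each gene) of *Bmp7*, the BMP antagonist *Grem1*, the BMP-binding *Crim1*, the integrin subunit *Itgb8*, the ligand *Gdf15* and the matrix gene *Tgfbi* in every library; lines are group means and the open circle is aged IgG2a replicate 1. *Grem1* and *Gdf15* lie higher in every aged library than in every young one, and replicate 1 parts from the other IgG2a libraries for *Bmp7*, *Grem1* and *Tgfbi*.

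Of 11 genes for storage and activation of latent TGF-β, 2 rose and 4 fell with IgG2a over young (17.4% of all genes passed), 2 rose and 4 fell without replicate 1 (45.6%), and 1 rose and 4 fell with aPD1ab over young (22.4%). *Itgb8*, a subunit of an integrin that activates latent TGF-β, was at 50.1 to 79.0 CPM in young and at 26.6, 6.54, 12.7 and 8.63 CPM with IgG2a, a fall of 4.35-fold (log2 fold change -2.12, standard error 0.36, edgeR adjusted p = 0.00997), and 6.43-fold without replicate 1 (-2.68). With aPD1ab it was at 16.8, 53.5, 22.9 and 20.3 CPM (-1.11, standard error 0.31, edgeR adjusted p = 0.0301). Over the 9 omissions that call held only without aPD1ab replicate 2 or young replicate 1 (adjusted p up to 0.0799 in edgeR). It was also lost with no filter (edgeR adjusted p = 0.0669) and in the fit of all 3 groups (edgeR adjusted p = 0.0712). *Ltbp1*, which binds latent TGF-β to the matrix, fell in both aged groups, with log2 fold changes of -0.69 (edgeR adjusted p = 0.0164) and -0.95 (edgeR adjusted p = 0.00658), the former -0.61 without replicate 1 and lost without IgG2a replicate 3 (edgeR adjusted p = 0.0530). *Nrros*, which holds latent TGF-β on macrophages and microglia, rose with IgG2a (1.04, edgeR adjusted p = 0.0327, or 1.23 without replicate 1), from 76.5 ± 18.1 to 149.7 ± 53.5 CPM, and lost its call without any library but IgG2a replicate 1 (adjusted p up to 0.0993 in edgeR).

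Among 11 BMP, activin and GDF ligands, of which 9 were tested, 1 rose with IgG2a over young (17.4% of all genes passed). Without replicate 1, 1 rose and 2 fell (45.6%), and with aPD1ab over young 2 rose and 1 fell (22.4%). *Gdf15*, a stress-induced ligand of the wider family, rose in both aged groups. It was at 11.02 to 18.8 CPM in young, 24.7 to 53.7 with IgG2a and 36.5 to 68.7 with aPD1ab, for log2 fold changes of 1.54 (standard error 0.23, edgeR adjusted p = 0.00659, or 1.56 without replicate 1) and 1.77 (standard error 0.20, edgeR adjusted p = 0.00264). Both calls held in every setting tried. Of the other receptors none of 9 tested passed with IgG2a over young in edgeR when replicate 1 was kept, beside 17.4% of all genes. There were 2 at an unadjusted p under 0.05, for which the share over all genes is not reported here. Without replicate 1, 1 rose and 2 fell (45.6% of all genes passed). With all libraries DESeq2 called 2 and limma voom 4, beside 4455 and 7423 of all genes. In edgeR 4 fell with aPD1ab over young (22.4% of all genes passed). Of these *Bmpr2*, the type II BMP receptor, was lower by 0.82 on the log2 scale than in young (standard error 0.17, edgeR adjusted p = 0.00931). The other SMADs, *Smad5* being the most abundant at 42.6 to 55.9 CPM in young, gave 0 calls of 5 in edgeR. This held for IgG2a and for aPD1ab over young, beside 17.4% and 22.4% of all genes. In each, 2 of 5 had an unadjusted p under 0.05, for which the share over all genes is not reported here. Without replicate 1 there was 1 higher and 1 lower with IgG2a (45.6% of all genes passed).

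Of 15 genes that TGF-β is known to induce, 1 rose and 1 fell with IgG2a over young (17.4% of all genes passed), and 4 rose and 1 fell without replicate 1 (45.6%). With aPD1ab over IgG2a none passed in edgeR when replicate 1 was kept, beside 0.0% of all genes. There was 1 at an unadjusted p under 0.05, beside 28.0%, and 0 by DESeq2, beside 15.9%. Without replicate 1, 4 fell and 0 rose in edgeR, beside 13.2% lower and 17.1% higher of all genes. By limma voom with all libraries 6 fell and 0 rose, beside 39.7% of all genes in either direction. With aPD1ab over young 2 fell (22.4% of all genes passed). *Tgfbi*, a matrix protein named for its induction by TGF-β, was at 165, 588, 513 and 522 CPM with IgG2a against 136 to 211 CPM in young (log2 fold change 1.43, standard error 0.33, edgeR adjusted p = 0.0230, or 1.68 without replicate 1), a call lost without IgG2a replicate 2, 3 or 4 or young replicate 1, 3 or 4 (adjusted p up to 0.0688 in edgeR). The 6 macrophage markers summed to 2300 CPM in replicate 1, 5342 to 6523 in the other IgG2a libraries and 1416 to 2575 in young. Their part in the *Tgfbi* level was not tested. *Acta2*, the smooth muscle actin of contractile cells, fell 2.30-fold with IgG2a (-1.20, standard error 0.19, edgeR adjusted p = 0.00713, or -1.17 without replicate 1) and 2.88-fold with aPD1ab (-1.53, standard error 0.30, edgeR adjusted p = 0.00808), and both calls held in every setting. The summed level of 6 mesangial, pericyte and fibroblast markers was 132 to 178 CPM in young, 64.4 to 122 with IgG2a and 68.6 to 156 with aPD1ab, of 4 markers tested 1 was lower in each aged group, and their part in the *Acta2* level was not tested. With aPD1ab *Tagln*, another contractile gene, fell as well (-0.98, edgeR adjusted p = 0.0346), a call lost without aPD1ab replicate 1 or 4 or young replicate 1, 2, 3 or 4 (adjusted p up to 0.0752 in edgeR). That call was also lost with no filter on low counts (edgeR adjusted p = 0.0598). Of 8 genes induced by BMPs, 7 were tested, and *Id4* fell with IgG2a (-0.67, edgeR adjusted p = 0.0456, or -0.76 without replicate 1), whereas *Id2* rose with aPD1ab (0.67, edgeR adjusted p = 0.0357). In edgeR with all libraries these were the only calls of the list over young, beside 17.4% of all genes with IgG2a and 22.4% with aPD1ab. Among the omissions the call of *Id4* held only without IgG2a replicate 1 (adjusted p up to 0.115 in edgeR), and that of *Id2* only without aPD1ab replicate 1 or 3 (up to 0.101). With no filter the call of *Id4* was lost (edgeR adjusted p = 0.0677), as was that of *Id2* in the fit of all 3 groups (edgeR adjusted p = 0.166).

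Of 14 intracellular regulators, 3 rose and 1 fell with IgG2a over young (17.4% of all genes passed), 4 rose and 2 fell without replicate 1 (45.6%), 1 rose and 1 fell in the fit of all 3 groups, and 1 rose and 2 fell with aPD1ab over young (22.4%). *Smurf2*, a ubiquitin ligase that marks receptors and SMADs for removal, fell by 0.36 on the log2 scale with IgG2a (edgeR adjusted p = 0.0374, or by 0.40 without replicate 1) and by 0.61 with aPD1ab (edgeR adjusted p = 0.00678). The former call held only without IgG2a replicate 1 among the omissions (adjusted p up to 0.113 in edgeR). It was also lost with no filter on low counts (edgeR adjusted p = 0.0514). *Trim33*, a SMAD4 ligase, fell by 0.62 with aPD1ab (edgeR adjusted p = 0.00639). *Tgif1*, a repressor of SMAD targets, rose by 0.94 with IgG2a (edgeR adjusted p = 0.0452, or by 1.03 without replicate 1) and by 0.54 with aPD1ab (edgeR adjusted p = 0.0219). Among the omissions the former held only without IgG2a replicate 1 or 4 (adjusted p up to 0.133 in edgeR), and it was lost in 2 of 6 other settings. The latter was lost without aPD1ab replicate 4 (edgeR adjusted p = 0.0633) and in the fit of all 3 groups (edgeR adjusted p = 0.160).

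Finally, the genes with the pattern most like that of 2 members were taken over 13 libraries and 16330 genes, by the root mean square difference of centred log2 CPM. For *Bmp7*, which itself varied by 0.362 on this measure, they were *Spint1* (0.0861), *Slc25a5* (0.0907) and *Ndufa9* (0.0910). For *Tgfb1*, which varied by 0.655, they were *Il2rg* (0.178), *Nrros* (0.180) and *Ptafr* (0.191). Made up per kilobase of exon, *Tgfb1* supplied 83.0% ± 5.70 of the summed level of the 3 TGF-β ligands in young, 86.8% ± 4.15 with IgG2a and 81.9% ± 4.53 with aPD1ab, and the ranges of the groups overlapped (73.1 to 86.6%, 81.9 to 92.0% and 77.5 to 86.8%).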

How the data were processed

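RNA of the podocyte fraction was sequenced in bulk from TruSeq libraries, for mice of 3 groups. The authors deposited whole-number counts of reads per Ensembl gene, without normalization. The submitters' processing notes name HISAT2, featureCounts and mm10/GRCm38; versions and strand setting are not given in the sources used here. Of values from 1 to 12 in the table, 74.1% were even; how paired reads were counted is not given in the sources used here. The columns carry animal numbers. The plot of principal components in the study ties 13 of them to a group, and 2 columns were not tied and not used. Which of a group's samples a column is, is not known, so replicate numbers follow column order and pair nothing.

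Symbols and exon lengths came from GENCODE M21 (GRCm38; 45229 of 46078 genes). Each pair of groups was fitted over all genes with edgeR 4.0.16 in R 4.3.3 (quasi-likelihood, robust, TMM, filterByExpr), called at an adjusted p under 0.05. CPM used TMM over the 13 libraries. DESeq2 1.42.0 size factors and test, limma 3.58.1 voom with sample quality weights, no filter, a fit of all 3 groups, removal of mitochondrial genes, a 2-fold threshold and omission of each library were alternatives. The edgeR fit was run on simulated counts with the same spread for all genes and no library set apart. That run does not cover replicates as uneven as these. Replicates of a group differed by more than counting noise (chi-square per gene 12.72 to 360.8). Between aPD1ab libraries it reached 207.4, and none of these libraries was set apart. Depth was 19912969 to 32717100 counts, which puts 3 counts at 0.0843 to 0.207 TMM-scaled CPM; such limits cover counting error only. Members and lists were chosen with earlier results of these data known. Named genes are all members and, per list, up to 3 called genes a direction and comparison by p plus its most abundant gene; the text gives a subset of the latter. Results for some listed genes are not reported here.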

Additional observations from a re-analysis of the deposited data

Results flagged for a closer look

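Within each group of 4 or 5 libraries, 30 sets of member values were screened for 1 library far from the rest by the Dixon ratio of its gap to the range, and 5 were beyond the 95% limit, where chance gives about 1 in 20. Aged IgG2a replicate 1 gave 3 of the 5. It held 54.7 CPM of *Tgfb1*, when the nearest of the other 3 libraries held 143. For *Bmp7* it held 46.8 CPM, and the nearest other library held 24.3. It held 168 CPM of *Tgfbr1* against 367 in the nearest. Young replicate 4 was low for *Tgfbr2*, at 143 CPM against 176 in the nearest young library, and aged aPD1ab replicate 1 was high for *Smad2*, at 26.4 CPM against 23.6. These values are given without an explanation.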

How the results depend on the processing

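Depth was 19912969 counts or more, and the lowest count of a member was 68, for *Tgfb3*; what limited the calls was not tested. With 4 libraries against 4 or 5, leaving out 1 library moved most counts of calls. Members called between aged IgG2a-injected and young mice went from 2 to 1 with DESeq2 size factors, no filter, a fit of all 3 groups, mitochondrial genes removed or a 2-fold change required. They went to 3 with the DESeq2 test and to 8 with limma voom weights. Pathway genes went from 18 to 35 with voom weights and 10 with the 2-fold limit, and all genes from 2780 to 4455 (DESeq2), 7423 (voom) and 1353 (2-fold). Leaving out 1 library gave 0 to 8 members, 5 to 33 pathway genes and 553 to 7397 genes; the highest in each came without aged IgG2a replicate 1. Between aPD1ab and IgG2a, members went from 0 to 2 (DESeq2), 5 (voom) and 2 (fit of all 3 groups), pathway genes from 0 to 7, 29 and 8, and all genes from 0 to 2373, 6160 and 2863; omissions gave 0 to 5, 0 to 20 and 0 to 4788. Between aPD1ab and young, members went from 2 to 1 (fit of all 3 groups) and 0 (2-fold), pathway genes from 23 to 10 and all genes from 3578 to 766 (2-fold); omissions gave 1 to 2, 13 to 22 and 2369 to 3868. The sign of *Smad7* (IgG2a over young) turned to -6.4e-05 with DESeq2 size factors, -0.0084 with voom, -0.026 unfiltered, -0.052 in the fit of all 3 groups and -0.0095 without mitochondrial genes, and ran from -0.098 to 0.093 over omissions. With voom *Tgfbr3* was 0.076 (aPD1ab over IgG2a) and *Tgfb2* -0.0084 (aPD1ab over young). Over omissions *Tgfb2* ran from -0.31 to 0.047 and *Tgfb3* from -0.24 to 0.17 (aPD1ab over IgG2a), and *Tgfb2* from -0.053 to 0.12 and *Smad3* from -0.038 to 0.097 (aPD1ab over young). With the longest transcript as length, the *Tgfb1* share was 90.1%, 92.6% and 89.6% in young, IgG2a and aPD1ab, and the log2 ratio of *Bmp7* to *Tgfb1* -1.25 in young and -1.40 with aPD1ab. Omissions gave shares of 82.1 to 85.5%, 85.1 to 88.5% and 80.3 to 83.4%, and ratios of -0.63 to -0.24, -2.34 to -1.50 and -0.86 to -0.36. The shifts in share and ratio with the longest transcript follow from the lengths alone. The log2 ratio then moves by the same amount in every library. The cause of the other shifts was not tested. No paired analysis was made, since the 3 groups were different mice.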
